A study of Homo sapiens with 12 samples.

Results

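Simple-epithelium keratins are the intermediate filament proteins of single-layered epithelia and glands, and squamous carcinoma cells often carry them beside the keratins of stratified epithelium. The 5 genes described here, KRT7, KRT8, KRT18, KRT19 and KRT80, were chosen by gene symbol from the 57820 gene IDs listed for every library, and each was found once, under the IDs ENSG00000135480.10, ENSG00000170421.7, ENSG00000111057.6, ENSG00000171345.9 and ENSG00000167767.9. Their transcripts were measured by sequencing polyadenylated RNA in 12 libraries, which form 5 groups and come from 2 human squamous carcinoma cell lines. In BICR31, a head and neck line, 3 libraries came from cells treated with siKLF5, a small interfering RNA against the zinc-finger transcription factor KLF5, and 3 from cells given the siNC control. In HCC95, a lung line, 2 libraries each came from cells overexpressing KLF5 E419Q, a missense form with its change in a zinc finger, from cells overexpressing KLF5 WT, and from cells with an empty vector. The comparisons ask what silencing and overexpression of KLF5 do to these transcripts and whether E419Q and WT differ. No group is labelled as lacking the line's own KLF5 gene. The labels name neither the siRNA sequence nor the vector, its promoter or the harvest time.

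A keratin filament is built from acidic type I chains paired with basic type II chains, and a chain without a partner is unstable. KRT8 (type II) and KRT18 (type I) are the founding pair of simple epithelium. KRT19 is a type I chain that lacks the usual tail and can also pair with KRT8, KRT7 is a type II chain of ducts and glands, and KRT80 is a type II chain found at cell edges and near desmosomes. KLF5 is a factor of proliferating epithelial cells that binds GC-rich and CACCC-like sequence.

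KRT8 and KRT18 have many processed pseudogenes, near copies of the transcript elsewhere in the genome, so reads of the gene and its copies can be exchanged in counting. In GENCODE 29 transcripts, 32.7% of all stretches of 50 bases in KRT8 and 31.8% in KRT18 also occurred in another gene, against 1.79% in KRT19, 0.997% in KRT7 and 0.416% in KRT80. Over the aligned coding bases the identity with KRT8 was 95.8% for the pseudogene KRT8P33 on chromosome 5, 93.5% for KRT8P36 and 90.7% for KRT8P12, both on chromosome 3. The pseudogene KRT8P3, which was not aligned, shared the most stretches of 50 bases with KRT8, 395 against 128 for KRT8P33. KRT8P3 held 180 to 292 units with siKLF5, against 404 to 466 units with siNC. KRT8P12 held 44 to 47 counts with E419Q, 36 to 41 with WT and 39 to 48 with the empty vector, while KRT8P33 held 183 to 212 units with siKLF5, against 335 to 386 units with siNC. All 50 KRT8 pseudogenes together held 2.03% to 2.88% of the summed signal of KRT8 and its copies with siKLF5, against 2.43% to 2.45% with siNC. In HCC95 they held 0.716% to 0.739% with E419Q, 0.808% to 0.941% with WT and 1.10% to 1.61% with the empty vector. The 68 pseudogenes of KRT18 held at most 0.691% in any library and the 5 of KRT19 at most 0.0275%. Adding the pseudogenes to their parent genes changed no call on a member.

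RefSeq (GRCh38.p14) gave a promoter window for KRT8 but not for KRT18, KRT19, KRT7 or KRT80. It is shown because KRT8 was the member called in all 4 comparisons below, and it covers chr12:52926420-52926719 on the minus strand, 250 bases before and 50 after the annotated start. Of the 4 consensus coding transcripts of KRT8 in GENCODE 29, 1 (KRT8-215) starts inside it. Capitals mark CACCC read on the opposite strand.
KRT8 promoter: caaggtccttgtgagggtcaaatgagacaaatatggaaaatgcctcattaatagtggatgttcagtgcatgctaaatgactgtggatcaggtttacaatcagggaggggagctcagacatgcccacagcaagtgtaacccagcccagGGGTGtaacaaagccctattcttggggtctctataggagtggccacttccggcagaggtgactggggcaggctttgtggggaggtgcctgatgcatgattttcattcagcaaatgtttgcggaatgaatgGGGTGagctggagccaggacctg
CACCC, searched on both strands, matched at 2 places in the window, and 59.9% of the 35116 RefSeq promoter windows of this length held at least 1 match. GGGCGG, the GC box, and TGANTCA, the AP-1 motif, had no match in the window, while 45.0% and 7.71% of all windows held them.

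The libraries held 2150780 to 2296190 counts with siKLF5 and 1922350 to 1934360 with siNC, estimated from the step of the deposited values. In HCC95 they held 3074139 to 3364760 counts with E419Q, 3516984 to 3992553 with WT and 3455397 to 4643792 with the empty vector. Whether the libraries within a group were grown as separate cultures is not labelled, so the p-values reflect library-to-library spread alone, which may be technical. KLF5 itself was measured at 986, 1008 and 882 units of the deposited normalised signal with siKLF5, against 2682, 2289 and 2620 units with siNC. In HCC95 KLF5 stood at 427 and 442 CPM (counts relative to the library total) with E419Q, 420.0 and 404 CPM with WT, and 150 and 136 CPM with the empty vector. Per length, as TPM, the gap was wider, with KLF5 means of 446.5 with E419Q, 420.0 with WT and 88.2 with the empty vector. All 6 squamous markers (TP63, KRT5, KRT14, DSG3, SOX2 and PKP1) had reads in every group, while of the 4 immune markers CD3E and CD79A were at 0 in every library, PTPRC reached at most 18.2 units or 0.297 CPM, and CD14 had 90.3 to 263 units in BICR31 and at most 0.651 CPM in HCC95.

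The order of the members was judged on levels per length, TPM in HCC95 and, in BICR31, the signal divided by gene length and scaled, like TPM, to a common total per library. KRT19 was the most abundant of the 5 in both lines, then KRT8, then KRT18. In BICR31 the scaled level of KRT19 was 5081 ± 83.5 with siKLF5 and 5109 ± 168 with siNC (SD, n = 3 each), and that of KRT8 was 2299 ± 40.3 with siKLF5 and 3861 ± 110.4 with siNC. KRT18 stood at 1056 ± 16.4 with siKLF5 and 1750 ± 32.2 with siNC. KRT7 and KRT80 were lower, at 599.8 ± 14.6 and 450.8 ± 3.77 with siKLF5 and at 635.7 ± 45.5 and 381.8 ± 10.5 with siNC. The ranges of neighbours in this order did not overlap. The order of the last pair rests on the length used for KRT7, 755 bases in the deposited HCC95 files, where KRT7 has few reads, against 1754 bases for its GENCODE transcript. With GENCODE lengths, an alternative chosen after seeing the data, KRT7 lay under KRT80, at 2664 against 3684 units per kilobase with siNC.

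Among 19263 protein-coding genes, KRT19 ranked 7, KRT8 11, KRT18 58, KRT7 206 and KRT80 359 by level per length with siNC. The KRT7 rank there rests on the same deposited length of 755 bases as its place above KRT80, and would be lower with the GENCODE length. In HCC95 with the empty vector the ranks were 43 for KRT19, 130 for KRT8, 210 for KRT18, 1731 for KRT80 and 6271 for KRT7. There KRT19 stood at 4061 ± 90.4 TPM with E419Q, 3607 ± 141 TPM with WT and 3146 ± 179 TPM with the empty vector (SD, n = 2 each, as for all HCC95 groups). KRT8 stood at 2219 ± 63.2 TPM with E419Q, 1482 ± 90.9 TPM with WT and 1144 ± 34.0 TPM with the empty vector, and KRT18 at 1027 ± 56.2 TPM with E419Q, 602 ± 37.4 TPM with WT and 566 ± 40.5 TPM with the empty vector. KRT80 came next, at 34.5 ± 2.02 TPM with E419Q, 34.8 ± 0.233 TPM with WT and 86.9 ± 5.96 TPM with the empty vector. KRT7 was last, at 9.53 ± 5.74 TPM with E419Q, 13.8 ± 1.12 TPM with WT and 18.3 ± 2.59 TPM with the empty vector. The 5 ranges of a group overlapped nowhere. The files of the 2 lines were scaled separately, so ranks and shares, not levels, are set side by side.

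**Figure D1:**
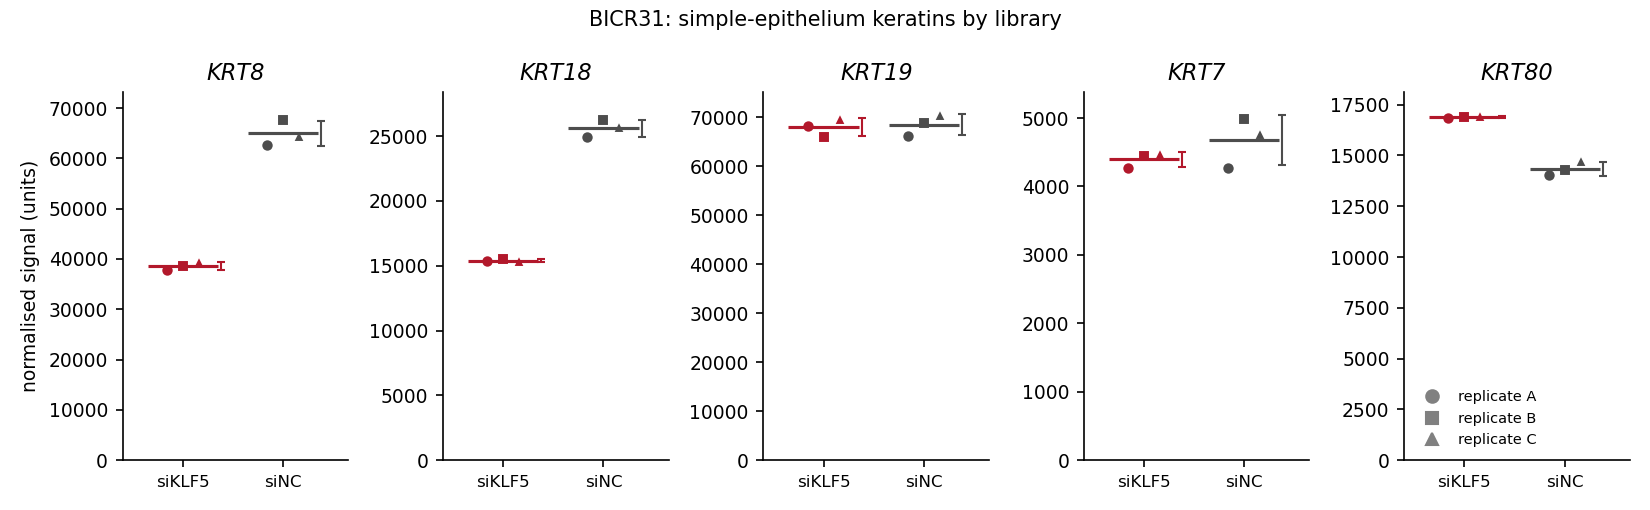
Deposited normalised signal (units, linear axis from 0) of the 5 keratins in the 3 siKLF5 and 3 siNC libraries of BICR31, with a line at the group mean and a bar of 1 SD on each side beside it. KRT8 and KRT18 lie lower in every siKLF5 library, KRT80 lies higher, and the groups overlap for KRT19 and KRT7.

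With KLF5 silenced, BICR31 cells had lower KRT8 and KRT18 and slightly higher KRT80, while KRT19 and KRT7 passed no test. Of the 5 members 1 rose and 2 fell, in a comparison in which 26.1% of the 15710 genes tested were called, 15.3% as risen and 10.8% as fallen. Rises made up 58.7% of all calls with the deposited scaling and 48.5% with quantile normalisation. The siKLF5 falls of KRT8 and KRT18 were already known when the members were chosen.

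KRT8 had 37736, 38638 and 39307 units in the siKLF5 libraries, against 62751, 67559 and 64542 units in the siNC libraries. Every siKLF5 library lay far under every siNC library, and KRT8 fell to 0.594 of its control level (log2 fold change -0.75, SE 0.0317, 95% interval of the fold 0.567 to 0.622, limma adjusted p = 2.56e-11). Under quantile normalisation the fall was smaller, at -0.46 on the log2 scale, and that of KRT18 was -0.75. KRT18 had 15351, 15500 and 15351 units with siKLF5, against 24934, 26217 and 25666 units with siNC. The groups again did not overlap, and KRT18 fell to 0.602 of its control level (log2 fold change -0.73, SE 0.0356, interval 0.571 to 0.634, limma adjusted p = 1.23e-10). In bulk RNA fewer cells carrying a transcript and less of it per cell cannot be told apart.

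KRT19, the alternative type I partner of KRT8, had 68240, 65992 and 69535 units with siKLF5, against 66200, 68737 and 70477 units with siNC. The libraries were interleaved, and the fold was 0.992 with a 95% interval of 0.950 to 1.036 (limma adjusted p = 0.822). The duct keratin KRT7 had 4271, 4441 and 4472 units with siKLF5, against 4271, 4986 and 4759 units with siNC. Its groups overlapped as well, with a fold of 0.942 and an interval of 0.858 to 1.035 (limma adjusted p = 0.366). KRT80 had 16844, 16875 and 16953 units with siKLF5, against 14036, 14289 and 14706 units with siNC. All siKLF5 libraries lay above all siNC libraries, and KRT80 rose 1.18-fold (log2 fold change 0.24, SE 0.0377, interval 1.11 to 1.24, limma adjusted p = 0.000158).

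With the deposited scaling, the filament partners KRT8 and KRT18 were close to a common proportion in both groups. The ratio of KRT8 to KRT18 per length was 2.14, 2.17 and 2.23 in the siKLF5 libraries, against 2.19, 2.24 and 2.19 in the siNC libraries (exact two-sided permutation p = 0.4, where 3 against 3 libraries cannot go below 0.1). The ratio of KRT19 to KRT18 was 4.82 ± 0.152 with siKLF5 and 2.92 ± 0.0699 with siNC (SD, n = 3 each). Summed per length, the 5 members stood at 9485 ± 58.6 with siKLF5 and 11740 ± 308 with siNC. Their share of all transcripts of the 54 keratins examined was 67.2%, 67.0% and 66.6% with siKLF5, against 64.2%, 65.0% and 65.0% with siNC. That share was 2.21 percentage points higher with siKLF5 without overlap (exact two-sided permutation p = 0.1, the smallest 3 against 3 allows). Keratins of stratified epithelium held 29.1% ± 0.208 with siKLF5 and 34.8% ± 0.445 with siNC.

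Among the 12 keratins of stratified epithelium, 10 were tested, of which 2 rose and 6 fell with siKLF5 (median log2 fold change -0.58, against 0.04 over all genes tested). KRT6A, an injury-response keratin whose near-identical relatives may take some of its reads, fell by 1.37 on the log2 scale (limma adjusted p = 8.90e-12). The basal type II keratin KRT5 fell by 0.62 (limma adjusted p = 8.63e-11) and the type I keratin KRT17 by 0.53 (limma adjusted p = 8.58e-09). By filament class, 3 of 10 tested type II keratins rose and 4 fell (median -0.35), and 3 of 13 tested type I keratins rose and 5 fell (median -0.01). The largest of these rises was that of the type I keratin KRT23, with 3763 ± 349 units in siKLF5 libraries and 157 ± 28.5 units in siNC libraries (log2 fold change 4.58, limma adjusted p = 1.45e-12).

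Other genes of simple and glandular epithelium were more often higher than lower with siKLF5. Of 22 listed, 20 were tested, of which 12 rose and 0 fell by limma (median log2 fold change 0.59), and at an unadjusted p under 0.05 these were 13 and 1. The tight junction protein CLDN4 rose by a log2 fold change of 1.19 (limma adjusted p = 9.03e-12) and the cadherin CDH1 by 0.81 (limma adjusted p = 1.23e-10). Of 14 genes whose proteins link keratins to junctions or bind them, 4 rose and 4 fell (median -0.06). JUP, plakoglobin of the desmosome, rose by 0.34 (limma adjusted p = 2.19e-07), while the cytolinker plectin, PLEC, fell by 0.64 (limma adjusted p = 7.42e-07) and plakophilin 1, PKP1, by 0.48 (limma adjusted p = 3.03e-06).

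Some cell type markers differed with siKLF5 as well. Of the 6 squamous markers, those of the lines' own cell type, 1 rose and 4 fell with siKLF5 (median log2 fold change -0.55). They summed to 51500 to 53470 units with siKLF5, against 76210 to 78810 units with siNC, most of it KRT5. The 4 fibroblast markers summed to 1189 to 1342 units with siKLF5, against 536 to 647 units with siNC, with DCN at 0 in all siKLF5 libraries. Nearly all of this was COL1A1, with 1173 to 1333 units with siKLF5 against 518 to 611 units with siNC, while PDGFRB had 8.22 to 15.8 units with siKLF5 against 18.2 to 27.1 units with siNC. COL1A1 rose (log2 fold change 1.13, limma adjusted p = 1.21e-06) and PDGFRB was not called (limma adjusted p = 0.512). The endothelial markers VWF and CDH5 summed to 205 to 345 units with siKLF5, against values up to 128 units with siNC. VWF rose (log2 fold change 1.21, limma adjusted p = 0.0222) and CDH5 was not called (limma adjusted p = 0.0518). The 4 immune markers summed to 175 to 271 units with siKLF5, against 90.3 to 201 units with siNC, with overlap, and the 1 tested, CD14, was not called (limma adjusted p = 0.125). Their part in the keratin results was not tested.

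**Figure D2:**
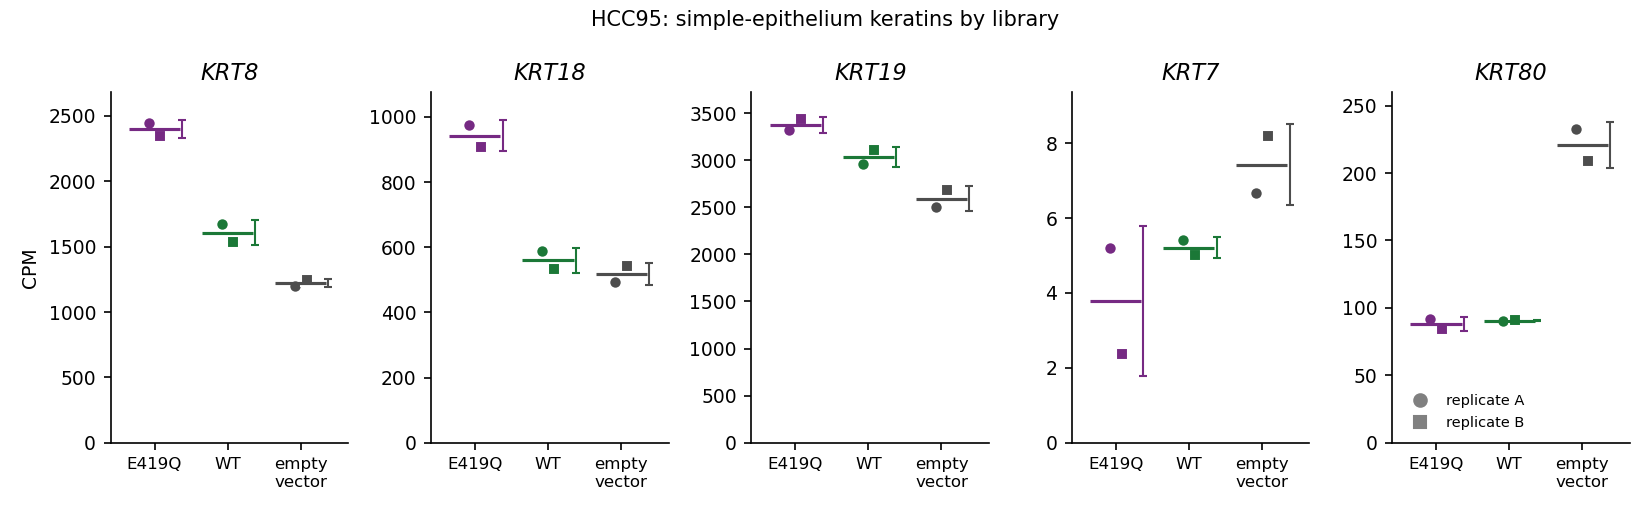
CPM (linear axis from 0) of the 5 keratins in the 2 libraries each of HCC95 with E419Q, WT and the empty vector, with a line at the group mean and a bar of 1 SD on each side beside it. KRT8 and KRT19 lie highest with E419Q and lowest with the empty vector, KRT18 is raised with E419Q, and KRT80 is low with both forms of KLF5.

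Overexpression of KLF5 E419Q in HCC95 was followed by higher KRT8, KRT18 and KRT19 and by lower KRT80. Of the 5 members 3 rose and 1 fell against the empty vector, while 21.2% of the 12933 genes tested were called, 10.4% as risen and 10.8% as fallen. With WT, 2 members rose, KRT8 and KRT19, and KRT80 fell, while 22.9% of all genes were called, 10.8% as risen and 12.1% as fallen. Both comparisons use the same 2 empty vector libraries, so their values are set side by side and are not independent of each other.

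KRT8 had 2447 and 2350 CPM with E419Q, 1677 and 1538 CPM with WT, and 1200 and 1243 CPM with the empty vector. The 3 groups did not overlap, and KRT8 rose 1.92-fold with E419Q (log2 fold change 0.94, SE 0.0522, edgeR adjusted p = 1.07e-11). With WT it rose 1.31-fold (log2 fold change 0.38, SE 0.0522, edgeR adjusted p = 1.14e-05). KRT18 had 976 and 909 CPM with E419Q, 588 and 533 CPM with WT, and 493 and 542 CPM with the empty vector. The E419Q libraries stood alone, and KRT18 rose 1.78-fold with E419Q (log2 fold change 0.83, SE 0.0627, edgeR adjusted p = 1.58e-09). WT and empty vector libraries overlapped, with a KRT18 fold of 1.07 and a 95% interval of 0.978 to 1.17 (edgeR adjusted p = 0.276).

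KRT19 had 3318 and 3438 CPM with E419Q, 2961 and 3110 CPM with WT, and 2499 and 2686 CPM with the empty vector. Its groups were ordered without overlap, and KRT19 rose 1.28-fold with E419Q (log2 fold change 0.35, SE 0.0483, edgeR adjusted p = 1.18e-05) and 1.16-fold with WT (log2 fold change 0.22, SE 0.0483, edgeR adjusted p = 0.00232). KRT80 had 91.7 and 84.7 CPM with E419Q, 90.4 and 90.7 CPM with WT, and 233 and 209 CPM with the empty vector. Both KLF5 forms left it low, as KRT80 fell by 1.35 on the log2 scale with E419Q (2.55-fold lower, SE 0.0839, edgeR adjusted p = 6.91e-11) and fell by 1.29 with WT (2.45-fold lower, SE 0.0813, edgeR adjusted p = 1.27e-10). KRT80 and KRT8 were called in opposite directions with siKLF5, with E419Q and with WT.

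KRT7 was close to the limit of these libraries, with 16 and 8 counts with E419Q, 19 and 20 counts with WT, and 23 and 38 counts with the empty vector. The E419Q and WT libraries all lay under both empty vector libraries, but neither difference passed the threshold. The fold was 0.490 with E419Q (95% interval 0.288 to 0.834, edgeR adjusted p = 0.0511) and 0.689 with WT (interval 0.426 to 1.11, edgeR adjusted p = 0.264). Without E419Q replicate A the first of these was called, at a log2 fold change of -1.68 (edgeR adjusted p = 0.0301), and over all alternatives its adjusted p ran over 0.02 to 0.529.

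**Figure D3:**
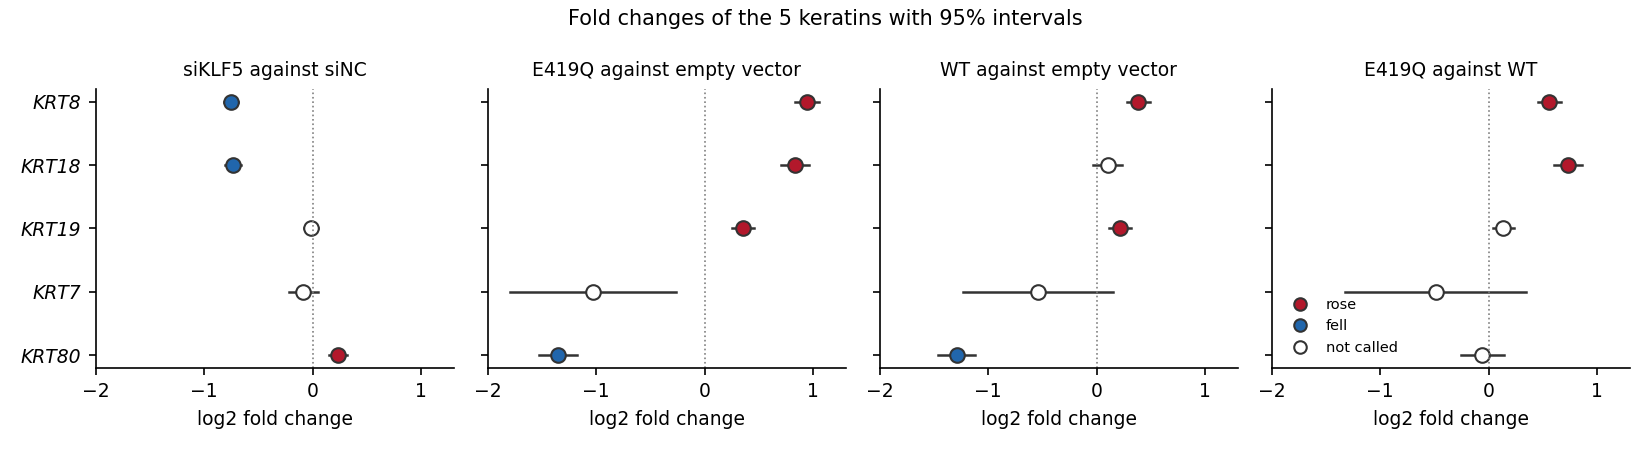
Log2 fold changes of the 5 keratins (points) with 95% intervals (lines) in the 4 comparisons, where red points rose, blue points fell and white points were not called. KRT8 lies at -0.75 with siKLF5, 0.94 with E419Q and 0.38 with WT, and KRT80 at 0.24, -1.35 and -1.29.

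E419Q and WT were also compared directly. The KLF5 transcript itself had a fold of 1.04 between them (95% interval 0.954 to 1.14, edgeR adjusted p = 0.683). In this comparison, in which 8% of all genes were called, 4.41% as risen and 3.59% as fallen, 2 of the 5 members rose and 0 fell by edgeR. At an unadjusted p under 0.05 these were 3 and 0, and by DESeq2 2 and 0. By edgeR, KRT18 rose 1.66-fold with E419Q relative to WT (log2 fold change 0.73, SE 0.0627, 95% interval of the fold 1.52 to 1.82, adjusted p = 2.07e-08) and KRT8 1.47-fold (log2 fold change 0.56, SE 0.0517, interval 1.37 to 1.59, adjusted p = 7.93e-08). The 3 others did not pass. KRT19 had a fold of 1.10 (interval 1.025 to 1.18, edgeR adjusted p = 0.0973), which was called when WT and E419Q libraries alone were fitted (edgeR adjusted p = 0.0416) or no filter was set (edgeR adjusted p = 0.0347), in a range of 0.0347 to 0.471 over its alternatives. KRT80 had a fold of 0.961 (interval 0.838 to 1.10, edgeR adjusted p = 0.820) and KRT7 of 0.712 (interval 0.400 to 1.27, edgeR adjusted p = 0.582). The KRT7 log2 fold change of -0.49 became -1.14 without E419Q replicate A and -0.016 without E419Q replicate B. Intervals of this width leave room for a difference in KRT7 in either direction.

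The KRT8 to KRT18 ratio per length was 2.12 and 2.20 with E419Q, 2.46 and 2.46 with WT, and 2.08 and 1.96 with the empty vector. It was highest with WT, where KRT8 had risen and KRT18 had passed no test, and 2 against 2 libraries cannot give an exact permutation p under 0.33. The 5 members held 38.4% and 37.0% of all keratin transcripts with E419Q, 21.9% and 21.0% with WT, and 21.7% and 23.5% with the empty vector. The share with E419Q was 15.1 percentage points above the empty vector and 16.2 above WT, without overlap of libraries, and that with WT differed from the empty vector by -1.13 points with overlap (-2.05 without empty vector replicate A and -0.21 without replicate B). The summed level of the members was 7352 ± 36.8 TPM with E419Q, 5740 ± 14.1 TPM with WT and 4962 ± 250 TPM with the empty vector. Keratins as a whole summed to 19500 ± 446 TPM with E419Q, 26750 ± 806 TPM with WT and 21970 ± 156 TPM with the empty vector.

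**Figure D4:**
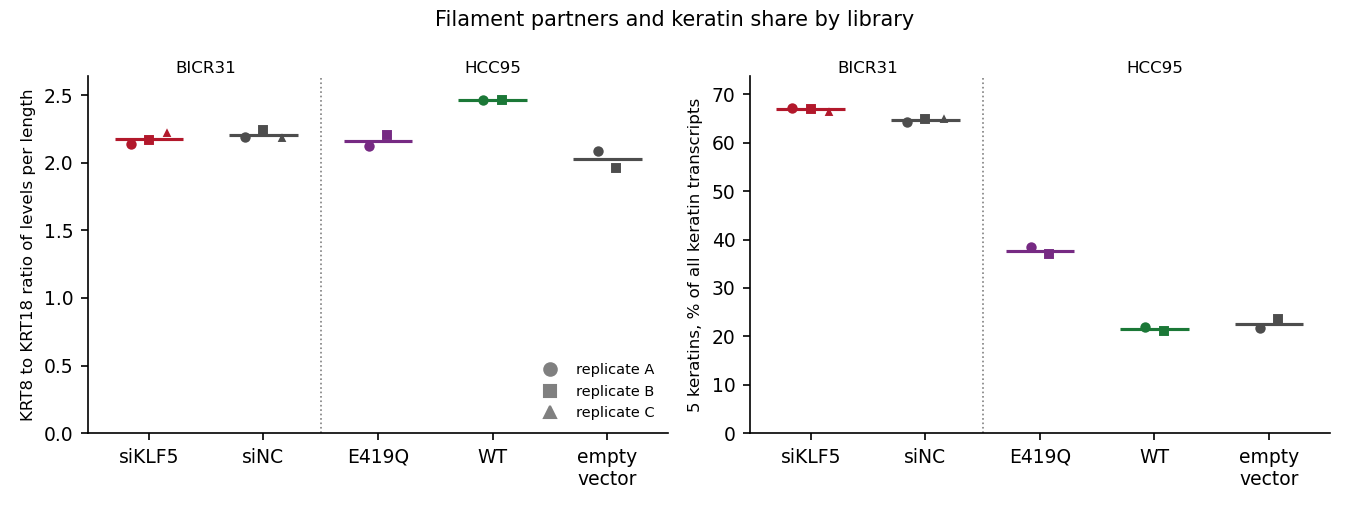
Ratio of KRT8 to KRT18 per length (left) and percentage of all keratin transcripts held by the 5 keratins (right), by library (points) and group mean (lines), with BICR31 left and HCC95 right of the dotted line and axes from 0. The ratio lies between 1.96 and 2.46 in all 12 libraries, while the share is 66.6% to 67.2% with siKLF5, 64.2% to 65.0% with siNC, and in HCC95 highest with E419Q.

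Keratins of stratified epithelium held 62.2% ± 1.05 of all keratin transcripts with E419Q, 78.5% ± 0.608 with WT and 77.4% ± 1.31 with the empty vector. Of 11 such genes tested, 2 rose and 8 fell with E419Q against the empty vector (median log2 fold change -0.56, against 0.00 over all genes), and 6 rose and 4 fell with WT (median 0.19). Between E419Q and WT 1 rose and 5 fell (median -0.32). KRT17 had 953 ± 105 CPM with E419Q, 4176 ± 350 CPM with WT and 3215 ± 406 CPM with the empty vector, so that it fell by 1.78 on the log2 scale with E419Q against the empty vector (edgeR adjusted p = 1.10e-13) and fell by 2.15 against WT (edgeR adjusted p = 1.22e-14). The mucosal keratin KRT13 had 2301 ± 177 CPM with E419Q, 5139 ± 245 CPM with WT and 3331 ± 104 CPM with the empty vector. KRT15, a type I keratin of basal cells and the neighbour of KRT19 on chromosome 17, went the other way, with 1289 ± 90.3 CPM with E419Q, 675 ± 49.8 CPM with WT and 287 ± 0.988 CPM with the empty vector (log2 fold change of E419Q against the empty vector 2.14, edgeR adjusted p = 6.84e-16).

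Of 8 tested type II keratins, which include KRT7, KRT8 and KRT80, 1 rose and 6 fell with E419Q (median -1.09), 3 rose and 4 fell with WT (median -0.60), and 1 rose and 2 fell between E419Q and WT (median -0.19). KRT8 was the type II keratin that rose with E419Q. Of 8 tested type I keratins, 4 rose and 3 fell with E419Q (median 0.06), 5 rose and 1 fell with WT (median 0.29), and 2 rose and 3 fell between E419Q and WT (median -0.17).

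Genes of simple and glandular epithelium other than keratins were divided in HCC95. Of 18 tested, 5 rose and 6 fell with E419Q against the empty vector (median -0.08), 3 rose and 6 fell with WT (median -0.27, and by DESeq2 0 rose and 5 fell), and 6 rose and 3 fell between E419Q and WT (median 0.14). The transcription factor EHF fell by 0.85 on the log2 scale with E419Q (edgeR adjusted p = 4.57e-09) and by 0.54 with WT (edgeR adjusted p = 2.73e-06), and CLDN4 by 0.70 with E419Q (edgeR adjusted p = 7.04e-08) and 0.97 with WT (edgeR adjusted p = 6.87e-10). AGR2, a secretory pathway protein of mucous cells, had 34.5 ± 0.00441 CPM with E419Q, 12.3 ± 0.345 CPM with WT and 6.88 ± 1.54 CPM with the empty vector. CDH1 and EPCAM, both adhesion proteins, rose with E419Q relative to WT by log2 fold changes of 0.66 (edgeR adjusted p = 2.73e-07) and 0.43 (edgeR adjusted p = 8.02e-05).

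Of the 14 keratin linkers and binding proteins, 5 rose and 4 fell with E419Q (median 0.15), 4 rose and 1 fell with WT (median 0.07), and 0 rose and 4 fell by edgeR between E419Q and WT (median -0.03). In that last comparison 1 was higher and 4 lower at an unadjusted p under 0.05, and 0 rose and 3 fell by DESeq2. PKP1 rose with both forms, by a log2 fold change of 0.66 with E419Q (edgeR adjusted p = 7.54e-08) and 0.62 with WT (edgeR adjusted p = 1.87e-07), as did periplakin, PPL, by 0.83 with E419Q (edgeR adjusted p = 3.99e-07) and 0.85 with WT (edgeR adjusted p = 2.68e-07). Desmoplakin, DSP, which anchors keratins in desmosomes, fell by 0.57 with E419Q against the empty vector (edgeR adjusted p = 1.15e-05) and by 0.61 against WT (edgeR adjusted p = 1.06e-05). Of the 6 squamous markers, 4 (PKP1, SOX2, TP63 and KRT14) rose and 2 (KRT5 and DSG3) fell with E419Q against the empty vector (median 0.45), 5 rose and 0 fell by edgeR with WT (median 0.57, and 0 fell at an unadjusted p under 0.05 or by DESeq2), and 1 rose and 3 fell between E419Q and WT (median -0.35). Their sum, most of it KRT5, was 12370 to 13190 CPM with E419Q, 18120 to 18810 CPM with WT and 15330 to 15770 CPM with the empty vector. The 4 fibroblast markers summed to 14.3 to 17.2 CPM with E419Q, 8.01 to 8.81 CPM with WT and 11.2 to 13.0 CPM with the empty vector, with DCN at 0 with E419Q and WT. VWF and CDH5 summed to 26.4 to 28.5 CPM with E419Q, 12.3 to 16.5 CPM with WT and 11.4 to 14.2 CPM with the empty vector, and the immune markers to at most 0.651 CPM. VWF rose with E419Q against the empty vector (log2 fold change 1.19, edgeR adjusted p = 7.3e-05) and against WT (0.94, edgeR adjusted p = 0.00162). With WT against the empty vector VWF was not called (edgeR adjusted p = 0.423). COL1A1 was called only between E419Q and WT, as risen (0.98, edgeR adjusted p = 0.0174). By DESeq2 neither COL1A1 nor VWF was called between E419Q and WT. The part of these markers in the keratin results was not tested.

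Over the 12 libraries, on log2 values with the mean of each cell line taken off, KRT8 and KRT18 had a Pearson correlation of 0.976. KRT80 was inverse to KRT19 (-0.88), KRT8 (-0.71) and KRT18 (-0.57). KRT7 was likewise inverse to KRT19 (-0.75), KRT8 (-0.47) and KRT18 (-0.40), and KRT7 with KRT80 had 0.68. These are descriptions over libraries that share 2 lines and their treatments, and they carry no p. Keratins and pseudogenes were not ranked among the genes most like a member. Of 9041 genes compared in the same way, the protein-coding genes most like KRT8 were the retinoic acid receptor RARG (0.984), TMEM14A (0.969) and the ephrin receptor EPHB3 (0.960). Among the genes ranked, RARG also came first for KRT18 (0.971), before the prion protein PRNP (0.963) and BLCAP (0.951). For KRT19 they were TSPO (0.958), SH3TC2 (0.943) and the splicing regulator ESRP1 (0.942). For KRT80 they were TRIO (0.984), the transcription factor RUNX1 (0.982) and the vasoconstrictor peptide gene EDN1 (0.977). For KRT7 they were the growth factor gene TGFA (0.929), EZR (0.924), which codes for ezrin, and TWSG1 (0.895). KRT7 itself held 8 to 38 counts and under 10 CPM in the HCC95 libraries, which limits its correlations.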

How the data were processed

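Poly(A) RNA was sequenced from 12 libraries and grouped by their labels. Reads were aligned with STAR and quantified with RSEM on hg19, per the submitters' processing notes, which also name edgeR and limma for HCC95 and give no versions. Neither source says whether counting used strand. The authors deposited RSEM expected counts for HCC95, with TPM and FPKM beside them, per the file headers. FPKM was not used. For BICR31 the authors deposited a normalised signal, with no statement of how it was scaled. In those files 1 count equalled 7.87 to 9.12 units (81.7% to 82.6% of values whole within 0.02), and an estimate of depth came from that step. KRT8 and KRT18 are neighbours on opposite strands. In GENCODE 29, 173 bases of the KRT8 transcript examined overlap KRT18 on the other strand. Of the 1562 bases of the KRT18 transcript examined, 375 overlap KRT8. Without strand, reads of KRT8 and KRT18 in these overlaps cannot be told apart.

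For BICR31, limma 3.58.1 (trend) was run on log2(signal + 1), the scale of its fold changes, for genes averaging 10 units or more. In HCC95, rounded expected counts of all 6 libraries were tested with edgeR 4.0.16 (quasi-likelihood, TMM, filterByExpr). All tests are two-sided, p-values were adjusted by Benjamini-Hochberg over all genes tested with a threshold of 0.05, and "rose" and "fell" mean past it. The limma and edgeR fits were first tested on simulated data. CPM came from expected counts and library totals. All 5 members passed the filters in both lines. Ratios and shares used TPM or, in BICR31, signal over the mean deposited HCC95 gene length, with exact permutation tests. Named beside the members and KLF5 were the members of each list with the smallest adjusted p, up to 3 per comparison, pseudogenes with reads, and the 3 most alike genes (mean of at least 100 units and 10 CPM). An item covered by this rule is not reported here. The members and lists were chosen with earlier results of these data known. Replicate letters did not pair libraries (correlation of deviations -0.08 to 0.07). Chi-square per degree of freedom was 1.22 to 1.88 within groups and 5.80 to 9.88 between groups of a line. Each library was counted by itself, though such values cannot show whether libraries came from separate cultures. Computations used R 4.3.3, DESeq2 1.42.0 as an alternative, and Python 3.11.15.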

Additional observations from a re-analysis of the deposited data

Results flagged for a closer look

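The effect of E419Q and that of WT, each against the empty vector, differed for KRT18 and KRT8. The empty vector drops out of that difference, so its test is the direct comparison of E419Q against WT reported above. It is not a second result. For KRT18 the log2 fold change was 0.83 with E419Q and 0.10 with WT, a difference of 0.73 (edgeR adjusted p = 2.07e-08, higher in 2 of 2 E419Q libraries than in any WT library). For KRT8 it was 0.94 with E419Q and 0.38 with WT, a difference of 0.56 (edgeR adjusted p = 7.93e-08, likewise without overlap). No group had the 4 libraries needed to look for a library far from its group.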

How the results depend on the processing

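No call on KRT8, KRT18 or KRT80 changed under the alternatives run: another filter, another scaling and each library left out in all comparisons, a pseudocount of 10 with siKLF5, DESeq2 and the fit of 4 libraries in HCC95, and, for KRT8 and KRT18, sums with pseudogenes. The replicate block changed no call on a member and gave 4076 called genes for siKLF5 (4097 without it), 2686 for E419Q and 2900 for WT against the empty vector, and 987 for E419Q against WT. It rests on letters that did not pair libraries. KRT19 with siKLF5 changed sign without a call: its log2 fold change was 0.075 under quantile normalisation and -0.036 to 0.0096 with 1 library left out. KRT80 between E419Q and WT ran over -0.12 to 0.00 with 1 library left out. KRT7 with E419Q was called without a filter (-1.05, adjusted p = 0.02) and ran over -1.68 to -0.55 with 1 library left out. KRT19 between E419Q and WT was called without a filter (0.13) and in the fit of 4 libraries (0.14).

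DESeq2 gave adjusted p-values for 13510 genes for E419Q, 9400 for WT and 12140 for E419Q against WT, and edgeR for 12933 in each. Genes called by DESeq2 and edgeR numbered 963 and 2737 for E419Q, 948 and 2962 for WT and 387 and 1034 for E419Q against WT. With 1 library left out they numbered 1626 to 2298, 1719 to 2422 and 597 to 634. Without division by length the simple keratin share was 3.52 points higher with siKLF5, 12.4 with E419Q than with the empty vector and 13.2 with E419Q than with WT, and with GENCODE lengths 3.44 points higher with siKLF5. The cause was not tested in any of these. With 2 libraries per HCC95 group and 8 to 38 counts of KRT7, depth limits KRT7 most.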

Other observations

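Among other intermediate filament genes, 8 of 11 listed were tested with siKLF5, of which 1 rose and 3 fell (median log2 fold change -0.02), where 26.1% of all genes were called. NES, nestin of progenitor cells, had 528 ± 27.0 units with siKLF5 and 112 ± 23.4 units with siNC (log2 fold change 2.25, limma adjusted p = 6.02e-07), while the lamins LMNB2 and LMNB1 fell by 0.41 (limma adjusted p = 2.61e-06) and 0.45 (limma adjusted p = 6.95e-05). In HCC95, 6 were tested, of which 1 rose and 1 fell with E419Q against the empty vector, 0 rose and 1 fell by edgeR with WT (2 and 1 at an unadjusted p under 0.05, 0 and 1 by DESeq2), and 1 rose and 1 fell between E419Q and WT. Of all genes, 21.2% were called with E419Q, 22.9% with WT and 8% between E419Q and WT. The neurofilament gene NEFL had 203 ± 15.6 CPM with E419Q, 299.8 ± 10.2 CPM with WT and 382 ± 19.3 CPM with the empty vector. LMNA had 496 ± 34.1 CPM with E419Q, 394 ± 37.3 CPM with WT and 347 ± 6.12 CPM with the empty vector.

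KRT18 is followed on chromosome 12 by EIF4B, a translation initiation factor. EIF4B had log2 fold changes of -0.13 with siKLF5 (limma adjusted p = 0.0763), 0.16 with E419Q (edgeR adjusted p = 0.0505) and 0.39 with WT (edgeR adjusted p = 2.41e-05), and fell by 0.23 with E419Q relative to WT (edgeR adjusted p = 0.0110). This gene was chosen for its position and after the values of KRT18 were known.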
